A study of Homo sapiens with 6 samples.

Results

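Long intergenic noncoding RNAs (lincRNAs) are transcripts without a known protein product, and the symbol LINC followed by a number is given to those whose function was unknown when they were named. The lincRNAs described here are the symbols of that form in a table of read counts from 22Rv1 cells, leaving out antisense names, that held at least 300 counts summed over the 6 libraries. They were 109 of 1462 LINC symbols and of 35322 symbols in all. Of the other LINC symbols, 683 had no count and 670 had some counts below that limit. They were thus selected on their summed count alone, which is given here as a description.

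The cell line, 22Rv1, is an established line from a human prostate carcinoma, and ZMYND11 encodes a reader of the histone mark H3.3K36me3. RNA was sequenced from 2 libraries each of control cells, labelled as wild type, and of cells with ZMYND11 knocked down, labelled ZM11-kd1 and ZM11-kd2. According to the study's methods the knockdown lines carried lentiviral shRNAs and were selected with puromycin, but which shRNA each carried is not given in the sources used here. A figure legend of the study describes the control cells as expressing control shRNAs, whereas their labels say wild type and name no vector. The labels state no further treatment, and do not say whether libraries of a group came from separate cultures, so p-values measure the spread between these libraries, which may be technical.

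ZMYND11 fell in both knockdowns, from 4283 and 4179 counts in control cells to 941 and 773 in ZM11-kd1 and 770 and 779 in ZM11-kd2. The libraries held 26844128 to 38193748 counts, with the shallower ones in control cells. Markers of prostate luminal cells were detected in every library and moved in both directions. KLK3, which encodes prostate-specific antigen, had 121 to 1235 counts and was lower in both knockdowns (log2 fold change -3.24 and -2.36), as was KLK2 (-2.21 and -1.74), while FOLH1 was higher (1.26 and 1.06). Normalization factors by the trimmed mean of M values (TMM) were 1.124 and 1.134 in control, 0.876 and 0.890 in ZM11-kd1 and 0.992 and 1.01 in ZM11-kd2. The part of the marker changes in the results below was not tested, and results that turn without the TMM factors are named where they occur.

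LincRNAs are transcribed by RNA polymerase II, and many are spliced and polyadenylated like mRNAs, but they are mostly less abundant and more restricted to particular cell types. Some act in trans, by binding RNA-binding proteins or chromatin complexes. Others are studied for effects on genes near their own locus, and for many no function is known. Several have been followed in prostate and other carcinomas because their levels differ between tumours.

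The summed counts of the lincRNAs ran from 304 to 20769, with a median of 889. Just inside the limit lay LINC00624 with 304 counts, LINC01376 with 311 and LINC02901 with 314, and just outside it LINC01431 with 295, LINC01970 with 294 and LINC01899 with 293. LINC00511 and LINC00673 had equal counts in every library, as did LINC00869 and LINC02591, so each pair was counted as 1 and 107 lincRNAs remained. In all, 10 of the 109 symbols shared every count with another symbol, and their values cannot be assigned to either. LINC00593 shared them with DRAIC and PCAT29, which are known as androgen-repressed prostate transcripts, and LINC01590 with the protein-coding gene SMIM8. A total of 72 of the 107 lincRNAs had at least 50 counts in every library. For 20 of them the libraries outside their highest condition held fewer than 200 counts together. Of these, 10 were highest in control, 8 in ZM11-kd1 and 2 in ZM11-kd2, so that their place in the set rested mostly on 1 condition, and the rule favours a difference between conditions in them. Of the lincRNAs named below they include LINC02367, LINC00624, LINC00339 and LINC02301, highest in control, LINC02901, LINC01137, LINC01962, LINC01807 and LINC01091, highest in ZM11-kd1, and LINC01133 and LINC02481, highest in ZM11-kd2. Their changes are given as descriptions, without p-values.

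The symbols were placed in the GENCODE 44 annotation of GRCh38, the same assembly as the authors' hg38. This gave a gene for 104 of the 109 symbols, of which 101 were annotated as lncRNA. LINC00672 was annotated as protein-coding, and the others were transcribed pseudogenes, so the label did not hold for every symbol. The name intergenic did not hold for all of them either. Of the 103 placed lincRNAs counted once, 23 had a span that overlapped a protein-coding gene. The exons of 19 overlapped those of another gene on the same strand, and the exons of 43 overlapped those of a gene on the other strand. The sources used here do not say whether strand was used in counting, so reads of such partners may not be told apart. The placed lincRNAs lay on 23 chromosomes, with 16 on chromosome 1. Their exons covered 540 to 33198 bases, with a median of 4950, and 11 had a single exon.

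As a whole the lincRNAs changed about as often as other genes. In ZM11-kd1 against control, 47 of 107 were called higher (43.9%, against 38.2% of the 16510 genes tested) and 33 were called lower (30.8%, against 39.8%). In ZM11-kd2 against control, 41 were called higher (38.3%, against 36.5%) and 33 lower (30.8%, against 36.9%). A call means an adjusted p under 0.05 in edgeR's quasi-likelihood test, with Benjamini-Hochberg adjustment over all genes tested. All 107 passed the filter on low counts. In bulk RNA, a lower count from fewer cells with a transcript and from less RNA per cell cannot be told apart. The balance depended on scaling in both knockdowns. With library totals in place of TMM, 32 lincRNAs were called higher in ZM11-kd1 (29.9%, against 27.8% of all genes) and 42 lower (39.3%, against 51.0%). The share higher among those called was then 43.2%, compared with 58.8% under TMM. In ZM11-kd2, library totals gave 34 higher and 34 lower, a share of 50% higher, compared with 55.4% under TMM. Library totals moved the median log2 fold change of all genes to -0.38 in ZM11-kd1 and -0.20 in ZM11-kd2, from -0.03 in each under TMM.

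The median log2 fold change of the lincRNAs under TMM was 0.30 in ZM11-kd1 and 0.07 in ZM11-kd2. It is not given here with library totals, which moved the median of all genes to -0.38 and -0.20. Its sign may therefore depend on scaling. Without its sign, the median change was 0.81 in ZM11-kd1, against 0.87 over all genes, and 0.67 in ZM11-kd2, against 0.68. Summed over the 107 lincRNAs, normalized counts scaled to library size (CPM) were 1039 and 1051 in the control libraries, 1179 and 1205 in ZM11-kd1, and 1062 and 1076 in ZM11-kd2. On this scale the ZM11-kd1 libraries were the highest, and no condition overlapped another. LINC00662 alone had a mean of 52.2 CPM in control, 177 in ZM11-kd1 and 89.8 in ZM11-kd2. Most of the summed rise in ZM11-kd1, and the place of ZM11-kd2 above control, rested on this lincRNA. As a share of all counts the order was turned, with 0.118% in each control library, 0.105% in each ZM11-kd1 library, and 0.105% and 0.109% in ZM11-kd2. Directly compared, ZM11-kd2 was higher than ZM11-kd1 for 32 lincRNAs (29.9%, against 34.9% of all genes) and lower for 39 (36.4%, against 33.8%). This balance turned as well with library totals, to 37 higher (34.6%, against 42.8% of all genes) and 31 lower (29.0%, against 27.3%). Among all tested genes annotated as lncRNA, 31.6% were called higher and 33.4% lower in ZM11-kd1, and 27.6% and 30.3% in ZM11-kd2. That class holds genes of lower count, since it was not limited to 300 counts.

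Both comparisons with control use the same control libraries, so the patterns over both are descriptions. A total of 28 lincRNAs were called higher in both knockdowns (26.2%, against 25.6% of all genes), and 21 were called lower in both (19.6%, against 27.0%). A further 12 had opposite calls (11.2%, against 9.10%). In ZM11-kd1 alone, 12 were called higher (11.2%, against 8.26%) and 7 lower (6.54%, against 8.08%), and in ZM11-kd2 alone 8 were called higher (7.48%, against 6.20%) and 5 lower (4.67%, against 5.51%). The remaining 14 were called in neither (13.1%, against 10.3%), and 2 of these were called between the knockdowns. With library totals in place of TMM, 16 lincRNAs were called higher in both knockdowns (15.0%, against 18.0% of all genes). The number higher in both thus depended on scaling. The matching number lower in both is not given here, so the excess of higher over lower may not hold under that scaling.

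**Figure D1:**
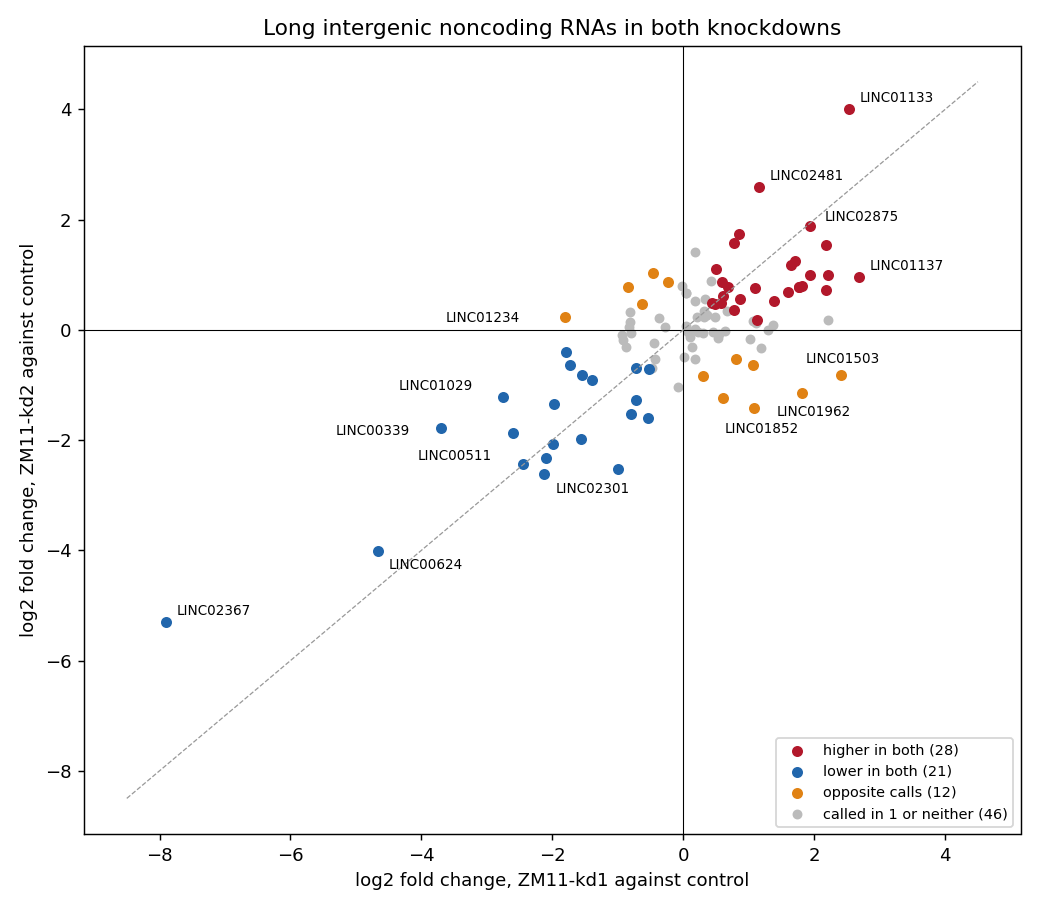
Log2 fold change of each of the 107 lincRNAs in ZM11-kd1 against control (x axis) and in ZM11-kd2 against control (y axis), with points coloured by call and a dashed line where both are equal. Both axes share the control libraries. LINC02367 lies farthest down, LINC01133 highest, and LINC01503 and LINC01962 lie right of zero and below it.

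Promoter sequences are shown for 3 lincRNAs as examples. LINC02367 had the largest fall, and LINC01962 and LINC01234 parted between the knockdowns in opposite ways. The changes of LINC02367 and LINC01962 are descriptions, as said above. The opposite calls of LINC01234 held in 9 of the 14 alternative fits described below. Each window runs from 250 bases before to 50 bases after the RefSeq start on GRCh38.p14, written 5′ to 3′ along the transcribed strand. The windows are chr12:9367214-9367513 on the plus strand for LINC02367, chr5:181191859-181192158 on the minus strand for LINC01962, and chr12:113773634-113773933 on the minus strand for LINC01234. Capitals mark the motif CCAAT on either strand (ATTGG where it reads on the other strand), and the other motifs searched had no match in these 3 windows. The windows held 4, 35 and 4 CpG dinucleotides in that order. The RefSeq start of LINC02367 lies inside its longer GENCODE span, which begins at position 9347056.
LINC02367: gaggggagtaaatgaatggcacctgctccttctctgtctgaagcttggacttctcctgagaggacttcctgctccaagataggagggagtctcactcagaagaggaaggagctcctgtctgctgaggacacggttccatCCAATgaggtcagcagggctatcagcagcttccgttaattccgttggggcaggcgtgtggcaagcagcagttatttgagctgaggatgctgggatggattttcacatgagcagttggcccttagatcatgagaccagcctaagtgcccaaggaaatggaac
LINC01962: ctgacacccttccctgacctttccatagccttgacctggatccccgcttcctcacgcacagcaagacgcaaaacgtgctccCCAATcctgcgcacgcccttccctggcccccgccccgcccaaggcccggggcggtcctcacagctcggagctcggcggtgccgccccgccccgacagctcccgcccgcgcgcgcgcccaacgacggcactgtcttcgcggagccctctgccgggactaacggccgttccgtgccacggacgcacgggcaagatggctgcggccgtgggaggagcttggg
LINC01234: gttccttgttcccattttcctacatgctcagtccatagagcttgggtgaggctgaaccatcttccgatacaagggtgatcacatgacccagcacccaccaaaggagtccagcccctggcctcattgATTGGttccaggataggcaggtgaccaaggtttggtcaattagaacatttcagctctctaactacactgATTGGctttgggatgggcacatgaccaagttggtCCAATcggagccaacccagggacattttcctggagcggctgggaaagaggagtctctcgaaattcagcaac

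The lincRNAs that rose furthest in both knockdowns were LINC01133, LINC02875, LINC02481, LINC02901 and LINC01137. All of them were scarce in control cells, with 7 to 34 counts per library. LINC01133, reported to bind the splicing factor SRSF6, had 8 and 7 counts in control, 31 and 59 in ZM11-kd1 and 176 and 103 in ZM11-kd2. After scaling, the 3 conditions did not overlap, and ZM11-kd2 was highest. Its log2 fold change was 2.53 ± 0.52 (SE) in ZM11-kd1 and 4.004 ± 0.45 in ZM11-kd2, and the difference between the knockdowns was 1.47 ± 0.33.

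LINC02481 showed the same order. It had 21 and 13 counts in control, 36 and 42 in ZM11-kd1 and 115 and 120 in ZM11-kd2, without overlap. Its log2 fold change was 1.15 ± 0.36 in ZM11-kd1 and 2.59 ± 0.31 in ZM11-kd2. The ZM11-kd1 value was 0.83 without the second control library, 0.94 without the second ZM11-kd1 library, 0.80 with library totals and 0.56 with a correction for GC content and length.

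LINC01137, also called LITATS1 and known as a transcript induced by TGF-β that restrains TGF-β signalling, rose most in ZM11-kd1. It had 34 and 23 counts in control, 195 and 185 in ZM11-kd1 and 67 and 59 in ZM11-kd2. The ZM11-kd1 libraries stood above all others. Its log2 fold change was 2.69 ± 0.24 in ZM11-kd1 and 0.95 ± 0.27 in ZM11-kd2, and the latter was 0.69 without the second control library. The difference between the knockdowns was -1.73 ± 0.21.

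LINC02875 and LINC02901 are lincRNAs for which no role is given here. LINC02875 had 29 and 21 counts in control, 116 and 83 in ZM11-kd1 and 104 and 106 in ZM11-kd2, and LINC02901 had 14 and 21, 76 and 87, and 49 and 67. In both, each knockdown library exceeded each control library. The log2 fold changes of LINC02875 were 1.93 ± 0.27 and 1.88 ± 0.27, but this single-exon gene has a GC content of 70.8%, and a correction for GC content and length lowered the ZM11-kd1 value to 0.49 and ended its call. For LINC02901 they were 2.17 ± 0.34 and 1.54 ± 0.36.

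The other lincRNAs called higher in both knockdowns changed by less on average. Across all 28, log2 fold changes ran from 0.44 to 2.69 in ZM11-kd1, with a median of 1.27, and from 0.17 to 4.004 in ZM11-kd2, with a median of 0.79. Of the 28, 18 were also called between the knockdowns (64.3%, against 72.8% of all genes higher in both). The most counts, without regard to exon length, were those of LINC00662. It had 1498 and 1716 in control, 5934 and 5329 in ZM11-kd1 and 3375 and 2917 in ZM11-kd2. It was highest in ZM11-kd1 and lowest in control, with log2 fold changes of 1.76 ± 0.07 and 0.78 ± 0.07.

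The lincRNA with the largest fall was LINC02367, for which no function is given here. Its counts were 495 and 489 in control, 2 in each ZM11-kd1 library and 14 in each ZM11-kd2 library. It was thus readily detected in control cells and close to the limit of detection in both knockdowns, with ZM11-kd1 the lower. Control cells held 254 times the level of ZM11-kd1, with a 95% exact interval of 99.0 to 935 that covers counting error only. The log2 fold change was -7.91 ± 0.28 in ZM11-kd1 and -5.31 ± 0.20 in ZM11-kd2. The difference between the knockdowns, 2.60 ± 0.55, rests on few counts. Of its 1016 counts, 32 were in the knockdown libraries, so it entered the set through control cells alone, and its fall is a description.

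LINC00624, the lincRNA just inside the count limit, passed it through its control libraries. It had 146 and 128 counts in control, 8 and 3 in ZM11-kd1 and 8 and 11 in ZM11-kd2. Both knockdowns lay far below control and overlapped each other. Control cells held 25.8 times the level of ZM11-kd1 (95% exact interval 14.2 to 52.2). The log2 fold changes were -4.66 ± 0.39 and -4.02 ± 0.35. Its exons overlap those of CHD1L, which encodes a chromatin remodeller, on the other strand.

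LINC00339, LINC00511 and LINC02301 followed. LINC00339 had 189 and 242 counts in control, 20 and 14 in ZM11-kd1 and 72 and 71 in ZM11-kd2, and the 3 conditions did not overlap. Its log2 fold changes were -3.70 ± 0.25 and -1.77 ± 0.20, with a difference of 1.93 ± 0.29. Its exons overlap those of other genes on both strands, so its counts are uncertain.

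LINC00511 is known as a partner of EZH2, and it cannot be told apart here from LINC00673, also called SLNCR1. The shared counts were 845 and 806 in control, 157 and 154 in ZM11-kd1 and 185 and 163 in ZM11-kd2. Both knockdowns were well below control and overlapped each other, with log2 fold changes of -2.45 ± 0.12 and -2.43 ± 0.12 and a difference of 0.02 ± 0.13. LINC02301 fell from 145 and 132 counts in control to 21 and 44 in ZM11-kd1 and 30 and 21 in ZM11-kd2, by 2.12 and 2.62 on the log2 scale, and its knockdown libraries also overlapped each other.

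Across the 21 lincRNAs called lower in both knockdowns, log2 fold changes ran from -7.91 to -0.53 in ZM11-kd1, with a median of -1.80, and from -5.31 to -0.41 in ZM11-kd2, with a median of -1.61. Of the 21, 13 were also called between the knockdowns (61.9%, against 59.1% of all genes lower in both). One of them was LINC00593, whose counts are those of DRAIC and PCAT29. These were 431 and 364 in control, 298 and 270 in ZM11-kd1 and 161 and 136 in ZM11-kd2, in steps that did not overlap. This lincRNA lay outside the rule for naming and was chosen after its values were seen.

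**Figure D2:**
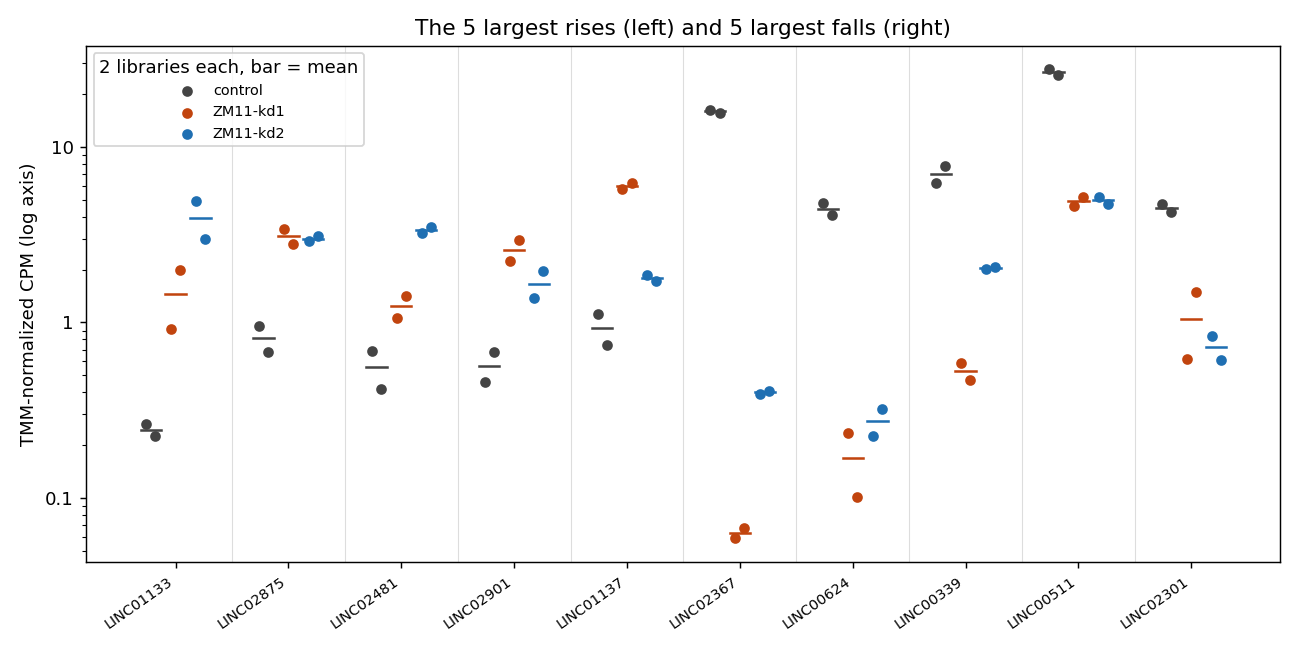
TMM-normalized CPM per library, on a log axis, of the 5 lincRNAs with the largest rises and the 5 with the largest falls in both knockdowns. Points are libraries, 2 per condition, and bars are means. All knockdown libraries lie above the control libraries on the left and below them on the right, and LINC02367 in ZM11-kd1 is the lowest.

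The lincRNAs that parted between the knockdowns were 7 called higher in ZM11-kd1 and lower in ZM11-kd2, and 5 called the other way. All 12 were also called between the knockdowns, which opposite calls all but fix and which is no further support for them. The opposite calls held in all 14 alternative fits for LINC00294, LINC00641, LINC01503 and LINC01852, and also for LINC01962, whose values are a description as said above. A fold of at least 1.5 on both sides left 6 of the 12, which were LINC01503, LINC01852, LINC01962, LINC00504, LINC01091 and LINC01410, so LINC00294 and LINC00641 did not reach it. LINC00294 lay outside the rule for naming and was chosen after its values were seen.

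The widest gap was that of LINC01503, known from squamous carcinoma, where a TP63-bound super-enhancer drives it. It had 173 and 193 counts in control, 1038 and 974 in ZM11-kd1 and 144 and 91 in ZM11-kd2. The ZM11-kd1 libraries stood far above the others, and ZM11-kd2 lay below control. Its log2 fold change was 2.41 ± 0.14 in ZM11-kd1 (edgeR adjusted p = 6.48e-10) and -0.83 ± 0.17 in ZM11-kd2 (edgeR adjusted p = 0.000528), and the difference was -3.24 ± 0.15.

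LINC01962 and LINC01852 behaved alike. LINC01962 had 63 and 59 counts in control, 214 and 228 in ZM11-kd1 and 32 and 31 in ZM11-kd2, with log2 fold changes of 1.81 ± 0.20 and -1.14 ± 0.25. LINC01852 had 92 and 93, 211 and 192, and 52 and 27, with 1.08 ± 0.21 and -1.41 ± 0.26. In both, ZM11-kd1 was above and ZM11-kd2 below control without overlap.

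LINC00467, described as a target of N-Myc in neuroblastoma, was far more abundant. It had 1888 and 1929 counts in control, 2558 and 2316 in ZM11-kd1 and 1264 and 1160 in ZM11-kd2. Its fall in ZM11-kd2 (-0.84 ± 0.06) was larger than its rise in ZM11-kd1 (0.31 ± 0.06), and with library totals the latter became -0.05. LINC00504 and LINC01091 were of low count, at 57 and 74 and at 57 and 53 in control, and differed by -1.70 ± 0.23 and -1.84 ± 0.27 between the knockdowns. The call of LINC00504 in ZM11-kd2 (edgeR adjusted p = 0.037) was lost in 5 of the 14 alternative fits. LINC01091 was less stable, and its opposite calls held in 7 of the 14.

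Of the lincRNAs called the other way, LINC01234, reported as a partner of HNRNPA2B1, differed most. It had 677 and 759 counts in control, 210 and 213 in ZM11-kd1 and 1014 and 914 in ZM11-kd2. ZM11-kd1 lay far below the other conditions, while ZM11-kd2 exceeded control by little after scaling (27.5 ± 1.20 against 23.3 ± 1.55 CPM, SD, n = 2). The log2 fold change was -1.81 ± 0.11 in ZM11-kd1 and 0.24 ± 0.09 in ZM11-kd2 (edgeR adjusted p = 0.0329), and the latter call was lost in 5 of the 14 alternative fits. The difference between the knockdowns was 2.05 ± 0.11.

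LINC00641 and LINC01963 were abundant members of the same kind. LINC00641 had 1299 and 1326 counts in control, 963 and 785 in ZM11-kd1 and 1912 and 2191 in ZM11-kd2, with log2 fold changes of -0.64 ± 0.09 and 0.46 ± 0.08. LINC01963 had 821 and 881, 784 and 713, and 1830 and 1727, with -0.23 ± 0.07 and 0.88 ± 0.07. ZM11-kd2 was the highest condition and ZM11-kd1 the lowest for both. LINC01410 and LINC01504, with 75 to 96 counts per control library, differed between the knockdowns by 1.62 ± 0.24 and 1.49 ± 0.17, and the ZM11-kd1 call of LINC01504 was lost in 8 of the 14 alternatives.

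LINC01807 parted in another way. It had 31 and 44 counts in control, 188 and 172 in ZM11-kd1 and 54 and 43 in ZM11-kd2. ZM11-kd1 was high, while ZM11-kd2 overlapped control. Its log2 fold change was 2.21 ± 0.23 in ZM11-kd1 and 0.18 ± 0.27 in ZM11-kd2, and the difference was -2.03 ± 0.22.

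Of 20 lincRNAs listed for reported roles in carcinoma, 9 reached the count limit. LINC01138, LINC00662 and LINC01133 were called higher in both knockdowns, LINC00511 lower in both, and LINC00467 and LINC01503 oppositely. LINC00665, which holds a reading frame for a micropeptide, had 2208 and 2211 counts in control, 1411 and 1194 in ZM11-kd1 and 2664 and 2861 in ZM11-kd2. It fell in ZM11-kd1 (-0.81 ± 0.07), while the ZM11-kd2 value was 0.14 ± 0.07 (edgeR adjusted p = 0.074).

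LINC01138, a PRMT5 partner in liver cancer, had 92 and 112 counts in control, 173 and 127 in ZM11-kd1 and 278 and 224 in ZM11-kd2, with log2 fold changes of 0.50 ± 0.18 and 1.11 ± 0.17. Its ZM11-kd1 call was lost without the first control library (0.38) and without the first ZM11-kd1 library (0.37). LINC01089, a transcript lowered by EGF and also called LIMT, had 390 and 455, 475 and 504, and 362 and 303 counts, with log2 fold changes of 0.17 ± 0.12 in ZM11-kd1, not called, and -0.53 ± 0.13 in ZM11-kd2, called, and a difference of -0.70 ± 0.13 between the knockdowns (edgeR adjusted p = 0.00019). The exons of LINC01089 overlap those of RHOF on the same strand and of other genes on the other strand, so its counts are uncertain. RHOF was called lower in both knockdowns (-1.07 and -1.64). LINC00472, the host of MIR30C2, had 156 and 150, 176 and 151, and 263 and 291 counts. Its log2 fold changes were 0.05 ± 0.15 in ZM11-kd1 and 0.67 ± 0.15 in ZM11-kd2. On the same list LINC00473 had 63 summed counts, LINC00261 had 4, LINC00908 had 3, LINC00857 had 1 and LINC00707 had 0. The other listed symbols are not analysed here.

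To compare levels between lincRNAs, CPM were divided by exon length in kb. This length is what the exons of all GENCODE transcripts of a gene cover together, so the order depends on the annotation. In control cells the level ran from 0.0655 to 9.90 CPM per kb over the 103 placed lincRNAs, with a median of 0.971. The highest were LINC01029 at 9.90, LINC00467 at 8.94, LINC01963 at 8.79, LINC02593 at 7.62, LINC00641 at 7.47 and LINC01003 at 5.99. The order was changed in the knockdowns. LINC02593 led in ZM11-kd1 at 16.7 CPM per kb and LINC01963 in ZM11-kd2 at 16.1, while LINC01029 stood at 1.47 and 4.25.

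LINC01029 had 1315 and 1394 counts in control, 220 and 196 in ZM11-kd1 and 659 and 665 in ZM11-kd2. The 3 conditions did not overlap, and the log2 fold changes were -2.75 ± 0.09 and -1.22 ± 0.08. LINC02593 had 932 and 1014, 2279 and 2121, and 1269 and 1222 counts. It rose in ZM11-kd1 by 1.13 ± 0.07, while its ZM11-kd2 value of 0.17 ± 0.07 (edgeR adjusted p = 0.0426) lost its call in 11 of the 14 alternatives and was near 0 with library totals. LINC01003 had 332 and 317, 564 and 583, and 516 and 434 counts, with 0.78 ± 0.12 and 0.36 ± 0.12, and a correction for GC content and length turned the ZM11-kd1 value to -0.17.

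Because a lincRNA is often read beside the gene next to it, each was set beside the nearest protein-coding gene. The median distance between them was 8419 bases, and the largest 1411315. A further 21 lincRNAs lay within 5 kb of a protein-coding gene without overlapping it, beside the 23 that overlapped one, and 12 were arranged head to head with one, here meaning starts within 5 kb on opposite strands and spans that do not overlap. Pairs whose starts are as close but whose spans overlap, such as LINC00271 and AHI1, are not in that count.

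Of the pairs that overlapped or lay within 5 kb, 41 had a tested neighbour. The background was 8925 pairs of a tested gene of any kind and its nearest protein-coding gene within the same distance. In ZM11-kd1 both genes were called in 21 lincRNA pairs (51.2%, against 65.3% of all pairs), 11 of them in the same direction (52.4% of those called, against 56.9%). In ZM11-kd2 both were called in 20 pairs (48.8%, against 56.9%), 12 in the same direction (60.0%, against 59.2%). Between the knockdowns both were called in 16 pairs (39.0%, against 50.5%), 13 in the same direction (81.2%, against 60.4%). These shares were not tested. Over the 41 pairs, Pearson's r of the log2 fold changes was 0.498, 0.518 and 0.467 in these 3 comparisons and Spearman's rho was 0.176, 0.316 and 0.417. Over all 85 pairs with a tested neighbour, r was 0.386, 0.328 and 0.0954 and rho 0.207, 0.238 and 0.0697. Over the 10 pairs more than 100 kb apart, r was 0.885, 0.803 and 0.368 and rho 0.939, 0.685 and 0.224. Few pairs stand behind these last values, and LINC02367 with PZP is among them. The points of a panel share all libraries, exons of some pairs overlap, and the LINC00624 and CHD1L pair lies far from the rest against control.

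Neighbours of lincRNAs named above moved with them in some pairs and against them in others. TRIM7, which encodes an E3 ubiquitin ligase and lies 2072 bases from LINC01962 on the same strand, had 817 and 783 counts in control, 1382 and 1343 in ZM11-kd1 and 442 and 386 in ZM11-kd2. Its log2 fold changes of 0.72 ± 0.08 and -1.14 ± 0.09 had the signs of those of LINC01962, and TRIM7 differed between the knockdowns by -1.86 ± 0.09. The LINC01962 values remain a description.

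S100P, a calcium-binding protein gene head to head with LINC02481, rose from 20558 and 22606 counts in control to 98924 and 90748 in ZM11-kd1 and 134511 and 105767 in ZM11-kd2, by 2.09 ± 0.08 and 2.29 ± 0.08. LINC02481 had at most 120 counts per library beside it. TBX2, a T-box transcription factor gene 2285 bases from LINC02875, rose by 2.74 ± 0.15 and 2.19 ± 0.16. SAMD11, head to head with LINC02593, rose by 1.74 ± 0.06 and 0.47 ± 0.07. All these neighbours had the sign of their lincRNA in both knockdowns.

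Other pairs went different ways. KMT2C, a histone methyltransferase gene 27142 bases from LINC01003, was lower in both knockdowns (-1.25 ± 0.06 and -0.73 ± 0.06), where LINC01003 was called higher. ZC3H12A, whose start is 148 bases from that of LINC01137 on the opposite strand, had 81 and 77 counts in control, 64 and 63 in ZM11-kd1 and 73 and 103 in ZM11-kd2, with log2 fold changes of -0.36 ± 0.25 and -0.03 ± 0.24 that did not pass the test. TRAF5, 7790 bases from LINC00467, was lower in both knockdowns, by -1.25 ± 0.11 and -2.17 ± 0.12, whereas LINC00467 was called higher in ZM11-kd1. PZP, 138661 bases from LINC02367, had 22 and 18 counts in control and 1 or 2 in every knockdown library. It was lower in both, as LINC02367 was, on too few counts to compare the size of the changes. IER5L, 154039 bases from LINC01503, was called higher in ZM11-kd1 (1.38 ± 0.07) and not in ZM11-kd2 (-0.06 ± 0.07).

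Promoter sequence was described for the lincRNAs that the RefSeq table covers. It held a promoter for 75 of the 107 lincRNAs. The motif CCAAT, searched on both strands, was in 54.7% of these, in 35.7% of all 27305 promoters of the same length and in 36.5% of the 12463 of tested genes. It was in 12 of the 21 promoters of lincRNAs higher in both knockdowns, 8 of the 15 of those lower in both, 5 of the 7 of those with opposite calls and 16 of the 32 of those called in 1 knockdown or in neither. CACGTG was in 8% of the lincRNA promoters, 7.43% of all and 9.64% of those of tested genes, TTTGAA in 12%, 15.4% and 10%, and TATAAA in 12%, 12% and 6.36%. The median number of CpG dinucleotides was 23 in lincRNAs higher in both, 9 in those lower in both, 4 in those with opposite calls and 19.5 in those called in 1 knockdown or in neither. It was 15 over all 75, compared with 14 in all promoters and 25 in those of tested genes. These are descriptions of sequence, and a match is not a binding site. No test was made of them.

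Other properties of these 3 groups are given here without a test. The median exon length was 4676 bases for lincRNAs higher in both knockdowns, 6732 for those lower in both and 4838 for those with opposite calls. Median GC content of exons was 47.6%, 43.6% and 44.4%, and the median level in control was 2.53, 10.0 and 4.54 CPM. Levels in control enter the fold changes themselves.

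Long noncoding RNAs with other names served as a comparison. The list is not separate from the lincRNAs, since it holds DRAIC, whose counts are those of LINC00593. Of 33 listed by name, 22 were tested. In ZM11-kd1, 7 of the 22 were called higher and 8 lower, where 38.2% and 39.8% of all genes were. In ZM11-kd2, 9 were called higher and 6 lower, where 36.5% and 36.9% of all genes were. The median log2 fold change of the 22 was 0.07 and 0.28, compared with 0.30 and 0.07 for the lincRNAs. Between the knockdowns 8 were called higher in ZM11-kd2 and 5 lower, where 34.9% and 33.8% of all genes were. The median was 0.30, compared with -0.11 for the lincRNAs. These medians are under TMM, may depend on that scaling, and were not tested against each other.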

How the data were processed

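The 6 RNA libraries of 22Rv1 cells were 2 each of control, ZM11-kd1 and ZM11-kd2, grouped by their labels. Per the study's methods, reads were assessed with FastQC 0.11.9, trimmed, aligned to hg38 with STAR 2.7.9a and sorted. HTSeq 0.13.5 is in the submitters' processing notes without its role. The annotation and strand setting of the counting are not given in the sources used here, nor whether these libraries were made by poly(A) selection or rRNA removal, which could change the level of transcripts without a poly(A) tail. The values deposited by the authors are raw read counts per gene symbol.

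The quasi-likelihood test of edgeR 4.0.16 (R 4.3.3) was run on them after TMM normalization and filterByExpr. All 3 conditions entered a single model, which left 3 residual degrees of freedom. Benjamini-Hochberg adjustment covered 16510 genes, and an adjusted p under 0.05 was a call. Standard errors are the size of the log2 fold change over the square root of F. The text names ZMYND11, LINC02367, the 5 largest rises and falls in both knockdowns, the 4 largest differences each way between knockdowns, up to 8 lincRNAs with opposite calls, the 6 with most CPM per kb in control, and the listed lincRNAs. Members, lists and rules were chosen with earlier results of these data known.

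Alternatives were a Wald test in DESeq2 1.42.0, its size factors in edgeR, library totals, a filter of at least 10 counts in each library or none, a fit of only the compared groups, a replicate block, a GC content and length correction (lowess span 0.3), each library left out, a fold of at least 1.5, and 1000 or more summed counts. Counts of 15885 genes were simulated with 200 genes changed per knockdown. Changes of 2 on the log2 scale were recovered in 87.4% of cases for ZM11-kd1 against control and 92.7% for ZM11-kd2. Changes of 1 were recovered in 73.3% and 80.8%. Of the calls, 3.03% and 7.49% were false. A far larger share of genes was called in the data themselves, so these rates may not carry over to them. Positions are from GENCODE 44 and promoters from RefSeq (GRCh38.p14). By name 32852 of all symbols matched, and 233 by a RefSeq synonym.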

Additional observations from a re-analysis of the deposited data

Results flagged for a closer look

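In the 2 knockdowns, 11 named lincRNAs were called on opposite sides of control. Their log2 difference, ZM11-kd2 minus ZM11-kd1, is given as a description, since opposite calls all but fix it. It was negative for LINC01503 (-3.24), LINC01962 (-2.95), LINC01852 (-2.49), LINC01091 (-1.84), LINC00504 (-1.70) and LINC00467 (-1.15). It was positive for LINC01234 (2.05), LINC01410 (1.62), LINC01504 (1.49), LINC01963 (1.11) and LINC00641 (1.10). Each knockdown library lay on the same side of both control libraries as its partner. Which shRNA each knockdown carried is not given in the sources used here, and its part in these differences was not tested.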

How the results depend on the processing

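With 1000 or more summed counts required, fewer lincRNAs entered, and 39 were called in ZM11-kd1 against control, 39 in ZM11-kd2 against control and 40 between the knockdowns, in place of 80, 74 and 71. Under that limit 13 were higher in both, 11 lower in both and 6 opposite. With library totals, 16 were higher in both in place of 28. Opposite calls numbered 7 in place of 12 under the DESeq2 Wald test and 6 with a fold of at least 1.5. The cause of these was not tested, except that the count limit and the fold threshold admit fewer lincRNAs by construction.

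Leaving out each library in turn gave 70 to 84 calls in ZM11-kd1 against control, 62 to 71 in ZM11-kd2 against control, 63 to 70 between the knockdowns, 21 to 27 higher in both, 18 to 21 lower in both and 7 to 12 opposite. The 7 came without control replicate 2. A condition left with 1 library is assumed to vary like the others.

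The replicate block gave 78, 67 and 67 calls in the 3 comparisons, with 25 higher in both, 20 lower in both and 10 opposite. Deviations of libraries with the same number correlated at 0.01, -0.03 and -0.04 over all tested genes. These values show no strong shared effect. They cannot exclude that libraries of the same number were handled together, since counting noise in genes of low count lowers such values.

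Among named lincRNAs, a GC content and length correction turned LINC02875 between the knockdowns to 1.16, LINC01003 in ZM11-kd1 to -0.17 and LINC01003 between the knockdowns to 0.27. Library totals turned LINC00467 in ZM11-kd1 to -0.049 and LINC02593 in ZM11-kd2 to -0.0005. Of the other values of named lincRNAs, 1180 kept their direction and side of the threshold, 58 lost their call and 8 gained one. The cause was not tested. Leaving out lincRNAs that share counts with another symbol, an alternative chosen after seeing the data, kept every count within 1.5 times. Few counts limit the precision of LINC02367 and LINC00624 in the knockdowns, and 2 libraries per condition that of every comparison.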
